A study of Mus musculus with 12 samples.

Results

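Expression of 34 genes, Myc and 33 factors that build ribosomes, was measured by bulk RNA-seq in 12 libraries of 10T1/2 cells. The 34 genes were found by symbol among the 56748 genes of the deposited table, with 1 entry each. All 34 passed the filter on low counts and were among the 16465 genes tested. By role, the list held Myc, 6 genes of ribosomal DNA transcription, 5 of box C/D and 4 of box H/ACA small nucleolar ribonucleoproteins (snoRNPs), 6 of the small subunit processome, 10 of large subunit assembly, and Npm1 and Gnl3.

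The 10T1/2 line (C3H10T1/2) is an established line of mouse mesenchymal progenitors, labelled wild type and mesenchymal stem cells. Cells of all groups were kept in suspension for 1 h and then grown for 18 h on hydrogels of 12 kPa that carried a coat of type I collagen (0.05 mg/ml). The labels give 0.5% FBS for the time in suspension, whereas the methods of the study give medium without serum there and 0.5% FBS on the hydrogels. The col1 group had collagen alone. For the col1-ACLP group, the collagen was polymerized with 30 nM of recombinant aortic carboxypeptidase-like protein (ACLP), made in AD293 cells from the mouse sequence with a myc-His tag. The col1-ACLP+SB group had the same substrate and, from seeding, 5 µM of SB431542, an inhibitor of the ALK5 receptor kinase of TGFβ signaling. Each group had 4 libraries. SB431542 was not given on collagen without ACLP, so its effect apart from ACLP cannot be told from these groups. The myc tag lies on the added protein and is not the Myc gene of the cells.

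Ribosomes are made in the nucleolus. RNA polymerase I transcribes a long precursor there, snoRNPs guide the modification of its bases, and successive assembly complexes cleave it and load ribosomal proteins into the small and the large subunit. Myc is a transcription factor that binds E-box DNA as a dimer with Max, and genes of ribosome production are among its best known targets. Growing cells spend much of their transcription on this pathway.

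The E-box letters CACGTG, which read the same on both strands, were looked up in promoters of 300 bases (250 before the start site and 50 from it) in the RefSeq promoter table for GRCm38.p6. Of the 34 genes, 27 had a promoter in the table, and Myc, Tcof1, Fbl, Rrp12, Bop1, Rrs1 and Npm1 had none. The letters were present in 5 of the 27 (18.5%) and in 8.09% of the 27025 symbols of the table. Of the members that were higher on col1-ACLP than on col1, 3 of the 9 with a promoter held the letters, and of the other members 2 of 18. Tcof1, Fbl, Rrp12 and Bop1 were also higher but had no promoter to read. A link between the letters and the change was not tested. The windows are shown because they hold the letters a Myc dimer is known to bind, and each was placed in GRCm39 by an exact match of its whole promoter, found once in the genome. Capitals mark the E-box, letters run 5′ to 3′ on the strand of the gene, and positions count from the start site as 0. A match describes the letters only, since binding was not measured.
Utp20, E-box at 37 to 42, chr10:88662627-88662669, minus strand: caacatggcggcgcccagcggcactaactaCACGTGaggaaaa
Mybbp1a, E-box at 40 to 45, chr11:72332163-72332202, plus strand: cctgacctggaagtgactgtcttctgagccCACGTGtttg
Wdr43, E-box at 17 to 22, chr17:71923197-71923259, plus strand: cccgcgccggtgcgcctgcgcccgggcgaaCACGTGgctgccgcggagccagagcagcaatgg
Pes1, E-box at 2 to 7, chr11:3913947-3914012, plus strand: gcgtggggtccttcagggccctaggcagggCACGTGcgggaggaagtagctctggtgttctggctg
Nop2, E-box at -60 to -55, chr6:125108756-125108821, plus strand: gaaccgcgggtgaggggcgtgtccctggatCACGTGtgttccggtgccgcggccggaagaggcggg

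Libraries held between 29246154 and 52201922 counts, and every member had at least 379 counts in every library. On the leading principal component of log2 CPM (19.5% of the variance), col1 replicate 2 stood apart, at -86.7 against -11.1 to -8.97 in the remaining col1 libraries. Results for the 34 members against col1 are therefore also given without col1 replicate 2, but not those for the further gene lists. Of 13 mesenchymal markers, 12 had a median above 1 CPM over all libraries, and Twist2 lay at 0.67 CPM. Epcam, Adgre1, Cd3e, Myod1, Myog and Myf5 had no count in any library. The summed level of 5 endothelial markers was 7.65 to 11.9 CPM on col1, 20.2 to 21.1 CPM with ACLP and 12.6 to 15.7 CPM with ACLP and SB431542. The mesenchymal sum was 51448 to 54618, 65002 to 79049 and 60447 to 67028 CPM in the same order, although the list moved in both directions: on col1-ACLP against col1, 4 of the 13 were higher and 5 lower, with a median log2 fold change of -0.088. The sum of 6 blood cell markers was 9.31 to 10.0 CPM, 5.45 to 8.71 CPM and 7.11 to 9.79 CPM, and came almost wholly from Cd68, the 1 of the 6 that passed the filter, which was lower on col1-ACLP. The endothelial sum came from Erg and Tek, while Pecam1, Cdh5 and Kdr did not exceed 0.31 CPM. Mitochondrial transcripts took a median of 2.61%, 2.07% and 2.51% of counts in the same order of groups. The part of these differences in the results below was not tested. In bulk RNA, a change in the share of cells of 1 kind and a change in RNA per cell cannot be told apart.

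Levels are given as CPM (counts scaled to the size of the library) after TMM scaling, and comparisons between genes as CPM per kb of the gene length in the table. On col1, Npm1, the abundant nucleolar chaperone, had the highest level per length at 120 CPM per kb. Ncl followed at 34.1, Nop10 at 31.9, Myc at 31.8 and Mybbp1a at 30.8 CPM per kb. Myc RNA was thus near the RNA of Ncl, Nop10 and Mybbp1a in level per length. Not divided by length, Myc was at 86.3 CPM, against 347 for Ncl, 179 for Mybbp1a and 35.4 for Nop10. At the low end were Rrp12 at 3.92, Polr1b, the second largest subunit of RNA polymerase I, at 3.05, and Wdr12 at 1.84 CPM per kb. The table's lengths cover all annotated exons, 10188 bases for Ncl and 11955 for Wdr12, so a level per length depends on how many transcripts are annotated. The spread between replicates was small, with a median coefficient of variation over the 34 genes of 6.78% on col1, 7.77% with ACLP and 7.76% with ACLP and SB431542.

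**Figure D1:**
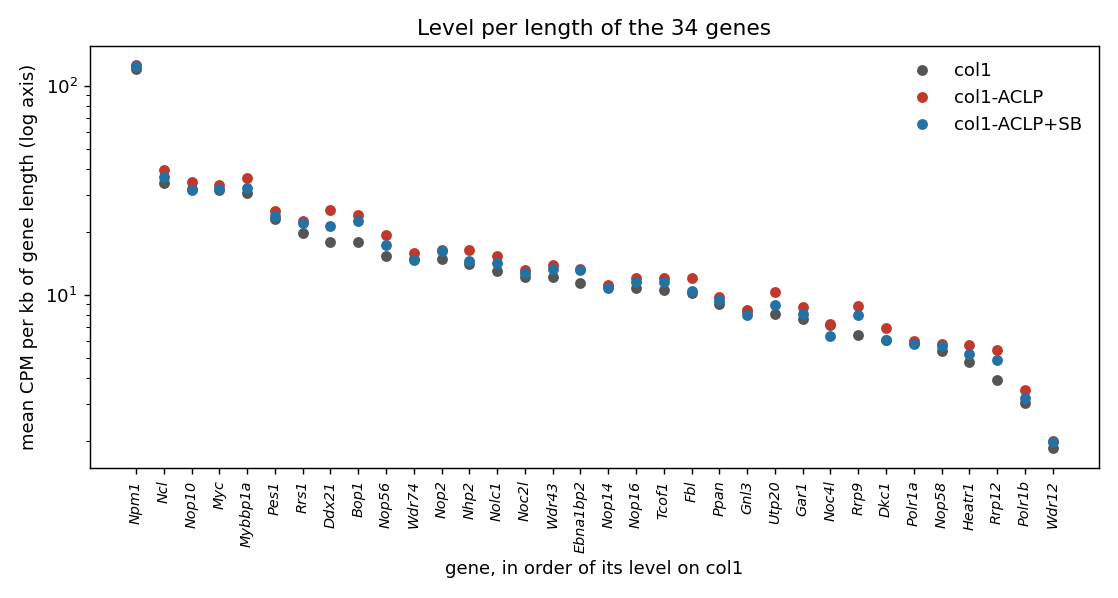
Mean level of each of the 34 genes per kb of gene length (vertical log axis, CPM per kb), in order of the level on col1, with 1 point per group. Npm1 stands highest at 120 CPM per kb on col1 and Wdr12 lowest at 1.84, and the groups lie close to each other at every gene beside the range between genes.

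Collagen-bound ACLP was compared with collagen alone to ask whether ribosome production genes move with the matrix protein. On col1-ACLP, 13 of the 34 genes were higher than on col1 at an adjusted p under 0.05 (38.2%), against 9.52% of all genes tested. None was lower, also at an unadjusted p under 0.05 and by DESeq2 or limma-voom, against 8.41% of all genes. The increases were modest: the largest was 41.2% for Ddx21, and no member passed a log2 fold change of 0.58 in size together with the p threshold, as 4.97% of all genes did. The estimate was higher in 34 of 34 members (30 of 34 when counts were scaled by library size alone) and in 48.5% of all genes. All 4 col1-ACLP libraries lay above all 4 col1 libraries in 12 members (35.3%) and in 10.9% of all genes. The median log2 fold change was 0.19 over the 34 genes, from 0.015 to 0.50, and -0.0099 over all genes tested (0.14 and -0.060 with library size alone). The members were read from the same libraries, so their signs are not independent of each other.

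Averaged over the 34 genes, centred log2 CPM was -0.11 to -0.060 in the col1 libraries, 0.078 to 0.15 in the col1-ACLP libraries and -0.043 to 0.034 in the col1-ACLP+SB libraries, with no overlap between groups. The members took 0.219% to 0.227% of all counts in the col1 libraries, 0.241% to 0.249% with ACLP and 0.228% to 0.237% with ACLP and the inhibitor. Among the col1-ACLP libraries, replicate 4 held the highest value of 21 of the 34 members, and of 27.5% of all genes tested. Without it, 9 members were higher than on col1 in place of 13, with a median log2 fold change of 0.17. In that fit, 1320 of 17054 genes were higher. Without col1 replicate 2, 13 members and 1454 of 16915 genes were higher, and the median over the members was 0.18. Tcof1 then lost its call (adjusted p = 0.108) and Pes1 gained one (adjusted p = 0.0363).

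**Figure D2:**
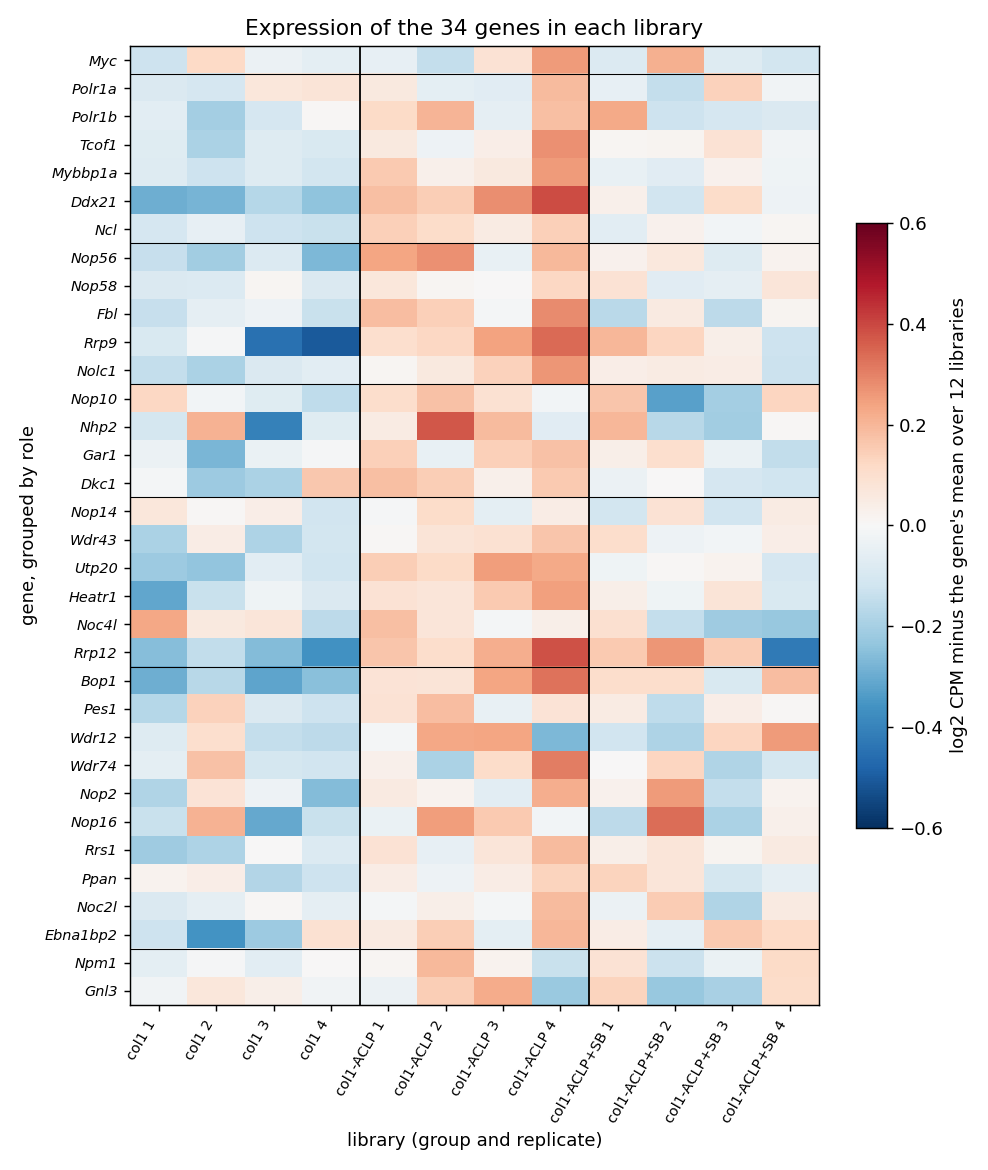
Colour gives log2 CPM of each gene minus its mean over the 12 libraries (rows are the 34 genes by role, columns the libraries by group). Rows such as Ddx21, Ncl and Bop1 are low in all 4 col1 libraries and high in all 4 col1-ACLP libraries, and Rrp12 is low in col1-ACLP+SB replicate 4 at 15.1 CPM.

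Of the 6 genes of ribosomal DNA transcription, 4 rose on col1-ACLP. For this and each count by role or list that follows on col1-ACLP against col1, the shares over all genes were 9.52% higher and 8.41% lower. Ddx21, an RNA helicase that works with RNA polymerases I and II in the nucleolus and nucleoplasm (ENSMUSG00000020075, GRCm39 chr10:62416030-62438060, minus strand), was at 89.8, 90.7, 97.9 and 93.2 CPM in col1 replicates 1 to 4. It was at 125, 122, 134 and 145 CPM on col1-ACLP, and at 113, 102, 119 and 108 CPM on col1-ACLP+SB. The 3 groups did not overlap, and the group with the inhibitor lay between the others. Its log2 fold change on col1-ACLP was 0.50 (SE 0.061, adjusted p = 7.61e-07 from the edgeR quasi-likelihood fit, adjusted over all genes by Benjamini-Hochberg, as for every adjusted p here).

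Ncl encodes nucleolin, which binds nascent ribosomal RNA. It was at 348, 361, 342 and 340 CPM in the col1 libraries, 412, 403, 386 and 412 CPM in those with ACLP, and 358, 380, 369 and 377 CPM in those that also had SB431542. All col1-ACLP libraries lay above both other groups (log2 fold change from col1 0.22, SE 0.042, adjusted p = 0.000499). Mybbp1a, a Myb-binding nucleolar protein of ribosomal DNA transcription and pre-rRNA processing, rose from 179 ± 2.99 CPM to 209 ± 15.2 CPM (SD, n = 4; log2 fold change 0.23, SE 0.051, adjusted p = 0.00207). Its col1-ACLP libraries, 195 to 228 CPM, were likewise above every library of both other groups. Tcof1, the treacle protein that holds RNA polymerase I at the ribosomal DNA, rose by 14.5% (adjusted p = 0.0401), from 52.4 to 56.9 CPM on col1 to 58.5 to 72.2 CPM on col1-ACLP. That call was lost in 7 of the 8 fits that left out 1 library (adjusted p from 0.0539 to 0.204), all but the fit without col1-ACLP replicate 2, and also with library size alone (adjusted p = 0.127) and with a replicate block (adjusted p = 0.0512).

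Catalytic subunits of RNA polymerase I did not pass the test. Polr1a, the largest subunit, was at 69.4 ± 4.61 CPM without and 71.5 ± 6.09 CPM with ACLP, with a 95% interval of the log2 fold change from -0.10 to 0.19. Polr1b was at 17.7 ± 1.07 and 20.4 ± 1.61 CPM, with an interval from -0.0068 to 0.41. Of 13 further genes of polymerase I transcription, 0 passed in edgeR, with 1 higher and 1 lower at an unadjusted p under 0.05, and 1 was higher by DESeq2. The smallest adjusted p was that of Polr1e, another subunit (log2 fold change 0.34, adjusted p = 0.0532).

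Box C/D snoRNPs, which guide 2′-O-methylation of ribosomal RNA, had 4 of 5 members higher. Nop56, a core protein of the particle (ENSMUSG00000027405, GRCm39 chr2:130116350-130121233, plus strand), was at 64.2, 61.2, 66.8 and 58.6 CPM in the col1 libraries and at 83.2, 85.5, 68.6 and 80.9 CPM with ACLP. The groups did not overlap, with replicate 3 of col1-ACLP just above the highest col1 library (log2 fold change 0.34, SE 0.067, adjusted p = 0.000487). Rrp9, the U3 snoRNP protein (ENSMUSG00000041506, GRCm39 chr9:106353162-106362623, plus strand), was at 21.0, 22.3, 16.4 and 15.8 CPM in the col1 libraries and at 24.0, 24.4, 26.5 and 28.3 CPM with ACLP. Its col1 libraries fell into a higher and a lower pair, and all col1-ACLP libraries were above them (log2 fold change 0.45, SE 0.11, adjusted p = 0.00405).

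Fbl, fibrillarin, the methyltransferase of the particle, rose from 42.9 ± 1.63 to 50.7 ± 4.25 CPM (log2 fold change 0.24, SE 0.074, adjusted p = 0.0224). Its call was lost without col1 replicate 1 or 4 and without col1-ACLP replicate 1 or 4, with adjusted p from 0.0609 to 0.0962, and with library size alone (adjusted p = 0.0744). Nolc1, a nucleolar chaperone of snoRNPs, rose from 51.6 ± 2.05 to 61.0 ± 4.76 CPM (log2 fold change 0.24, adjusted p = 0.0128), and its call was lost without col1-ACLP replicate 4 (adjusted p = 0.0695). Nop58, the partner of Nop56 in the particle, was at 58.1 ± 1.99 and 62.7 ± 2.47 CPM and did not pass (95% interval -0.014 to 0.24, adjusted p = 0.241). In 12 further genes of snoRNP assembly, 2 passed (1 with library size alone), both higher: the helicases Ruvbl2 (log2 fold change 0.28, adjusted p = 0.0136) and Ruvbl1 (0.27, adjusted p = 0.0169).

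Box H/ACA snoRNPs, which guide pseudouridylation, had 0 of 4 members past the test in edgeR, DESeq2 or limma-voom, and 1, Dkc1, at an unadjusted p under 0.05. Their estimates had a median of 0.19. The pseudouridine synthase Dkc1 was at 25.0 ± 3.11 CPM without and 28.5 ± 1.29 CPM with ACLP (95% interval 0.0034 to 0.37, adjusted p = 0.167). It passed in 1 of 16 alternatives (adjusted p = 0.0422). Gar1 was at 13.1 ± 1.08 and 15.0 ± 1.01 CPM, Nhp2 at 16.1 ± 2.79 and 18.7 ± 2.48 CPM, and Nop10 at 35.4 ± 2.92 and 38.4 ± 2.07 CPM. Upper bounds of the intervals of these genes reached 0.41 for Gar1, 0.48 for Nhp2 and 0.31 for Nop10 on the log2 scale, so their intervals covered increases of the size of those of Fbl and Nolc1. Exons of Nhp2 share 25.1% and exons of Dkc1 20.1% of their bases with genes on the opposite strand, Rmnd5b and Mpp1. Over all 34 members, 13 shared exon bases with a protein-coding gene, and 5 shared over 10% of them, Nhp2, Dkc1, Bop1, Nop16 and Noc2l. Whether reads were counted by strand is not given in the sources used here.

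The small subunit processome, the large complex that forms on the nascent precursor, had 4 of 6 members higher. Utp20 (ENSMUSG00000004356, GRCm39 chr10:88582469-88662666, minus strand) was at 79.5, 78.4, 88.5 and 85.1 CPM in the col1 libraries, at 103, 100.3, 110.0 and 108 CPM with ACLP, and at 91.0, 92.9, 93.9 and 86.3 CPM with the inhibitor. The col1-ACLP libraries were above all others, and the remaining groups overlapped by 1 library each (log2 fold change from col1 0.35, SE 0.056, adjusted p = 5.00e-05). Rrp12, which takes part in maturation and export of both subunits (ENSMUSG00000035049, GRCm39 chr19:41851290-41884612, minus strand), was at 17.0, 18.3, 16.9 and 15.8 CPM in the col1 libraries and at 22.8, 21.8, 23.6 and 26.5 CPM with ACLP. The groups were separate (log2 fold change 0.48, SE 0.12, adjusted p = 0.00423). Heatr1, the mammalian Utp10, rose from 37.3 ± 3.10 to 45.2 ± 2.51 CPM (log2 fold change 0.28, adjusted p = 0.00897).

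Wdr43, a WD-repeat protein of the processome, rose from 58.2 ± 4.57 to 66.5 ± 3.09 CPM (log2 fold change 0.19, adjusted p = 0.0376), with col1 replicate 2 at 64.7 CPM inside the range of the col1-ACLP libraries. Its call was lost in 6 of the 8 fits without 1 library (adjusted p from 0.0731 to 0.121), all but those without col1 replicate 2 or col1-ACLP replicate 1, and also with library size alone (adjusted p = 0.137) and with a replicate block (adjusted p = 0.0531). Nop14 and Noc4l, which act together in the same complex, had the smallest differences of the group. Nop14 was at 30.0 ± 1.64 and 30.5 ± 1.53 CPM (95% interval -0.14 to 0.19), and Noc4l at 18.6 ± 2.04 and 18.8 ± 1.09 CPM (95% interval -0.20 to 0.23). In 45 further genes of small subunit assembly, 9 passed, all higher, and the median log2 fold change was 0.13 (7, all higher, and 0.083 with library size alone). Smallest in adjusted p were Pno1 (0.49, adjusted p = 0.00127), Wdr36 (0.27, adjusted p = 0.00248) and Wdr75 (0.33, adjusted p = 0.00309).

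Large subunit assembly had 1 of 10 members past the test in edgeR, a share near the 9.52% of all genes. By limma-voom 1 passed and by DESeq2 2. Bop1, the scaffold of the complex it forms with Pes1 and Wdr12 (ENSMUSG00000022557, GRCm39 chr15:76337189-76361477, minus strand), was at 51.2, 56.1, 50.4 and 52.8 CPM on col1. It was at 66.4, 66.4, 73.9 and 78.9 CPM on col1-ACLP and at 67.7, 67.7, 58.9 and 71.5 CPM on col1-ACLP+SB. Every library with ACLP lay above every col1 library, and the pair of groups with ACLP overlapped (log2 fold change on col1-ACLP 0.44, SE 0.071, adjusted p = 4.45e-05). Its partners had smaller estimates: Pes1 was at 69.5 ± 6.80 and 76.3 ± 4.95 CPM (log2 fold change 0.13, 95% interval -0.0095 to 0.28), and Wdr12 at 22.0 ± 1.85 and 24.0 ± 3.85 CPM (0.13, 95% interval -0.11 to 0.36). Without col1 replicate 2, in which Pes1 was at 79.4 CPM, Pes1 was at a log2 fold change of 0.21. The difference between Bop1 and its partners was not tested. Exons of Bop1 share 12.8% of their bases with Hsf1 on the opposite strand.

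The other members of large subunit assembly were Rrs1 and Ebna1bp2, the nearest to the threshold, and 5 more. Rrs1, which recruits the 5S particle, was at 40.4 ± 2.80 and 46.3 ± 3.14 CPM (95% interval 0.050 to 0.34, adjusted p = 0.0558), and passed in 3 of 16 alternatives, DESeq2 among them (adjusted p = 0.0414). Ebna1bp2, the mammalian Ebp2, was at 40.3 ± 5.35 and 47.3 ± 3.65 CPM (95% interval 0.057 to 0.41, adjusted p = 0.0603), and passed in 4 of 16, with adjusted p from 0.00859 to 0.0441. Estimates of the remaining 5 ranged from 0.095 to 0.17: the RNA methyltransferase Nop2 was at 40.9 ± 4.37 and 45.5 ± 3.78 CPM, Nop16 at 19.8 ± 3.10 and 22.3 ± 2.18 CPM, and Wdr74 at 27.7 ± 2.74 and 29.6 ± 4.19 CPM. Ppan was at 36.1 ± 2.65 and 38.9 ± 1.80 CPM, and Noc2l at 50.8 ± 1.39 and 54.5 ± 3.68 CPM. In 48 further genes of large subunit assembly, 6 rose, a share near the 9.52% of all genes, and 1 fell, with a median of 0.12 (4, 2 and 0.065 with library size alone). Smallest in adjusted p were the helicase Ddx54 (log2 fold change 0.37, adjusted p = 0.00142), Nop53, which fell by 0.21 on the log2 scale (adjusted p = 0.00527), and Nip7 (0.31, adjusted p = 0.00676).

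Npm1 and Gnl3 (nucleostemin, a nucleolar GTPase) had estimates near 0 on col1-ACLP, with a median of 0.042 that became -0.0068 with library size alone. Npm1 was at 315, 326, 314 and 329 CPM in the col1 libraries, at 331, 376, 332 and 298 CPM with ACLP, and at 349, 299.8, 319 and 355 CPM with the inhibitor. The 3 groups overlapped throughout, and the libraries with ACLP were more spread than those on col1 (log2 fold change 0.060, 95% interval -0.063 to 0.18). Gnl3 was at 50.7 ± 1.55, 51.6 ± 6.94 and 48.9 ± 6.49 CPM in the 3 groups (log2 fold change on col1-ACLP 0.024, 95% interval -0.16 to 0.21).

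Myc itself (ENSMUSG00000022346, GRCm39 chr15:61857240-61862223, plus strand) was at 80.3, 95.4, 85.6 and 84.1 CPM in the col1 libraries, at 84.7, 79.5, 93.2 and 105 CPM with ACLP, and at 82.9, 102, 83.1 and 81.1 CPM with the inhibitor. The groups overlapped, and replicate 2 of col1 and of col1-ACLP+SB lay above the median of col1-ACLP. The log2 fold change of Myc RNA on col1-ACLP was 0.067 (SE 0.080, 95% interval -0.098 to 0.23, adjusted p = 0.659). Myc protein was not measured here. In the Myc network, 10 genes for partners and antagonists of Myc were tested and 1 passed (2 with library size alone, both lower). Mxd1, an antagonist that competes for Max, fell from 26.4 ± 3.29 to 19.1 ± 1.44 CPM (log2 fold change -0.47, adjusted p = 0.000883).

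**Figure D3:**
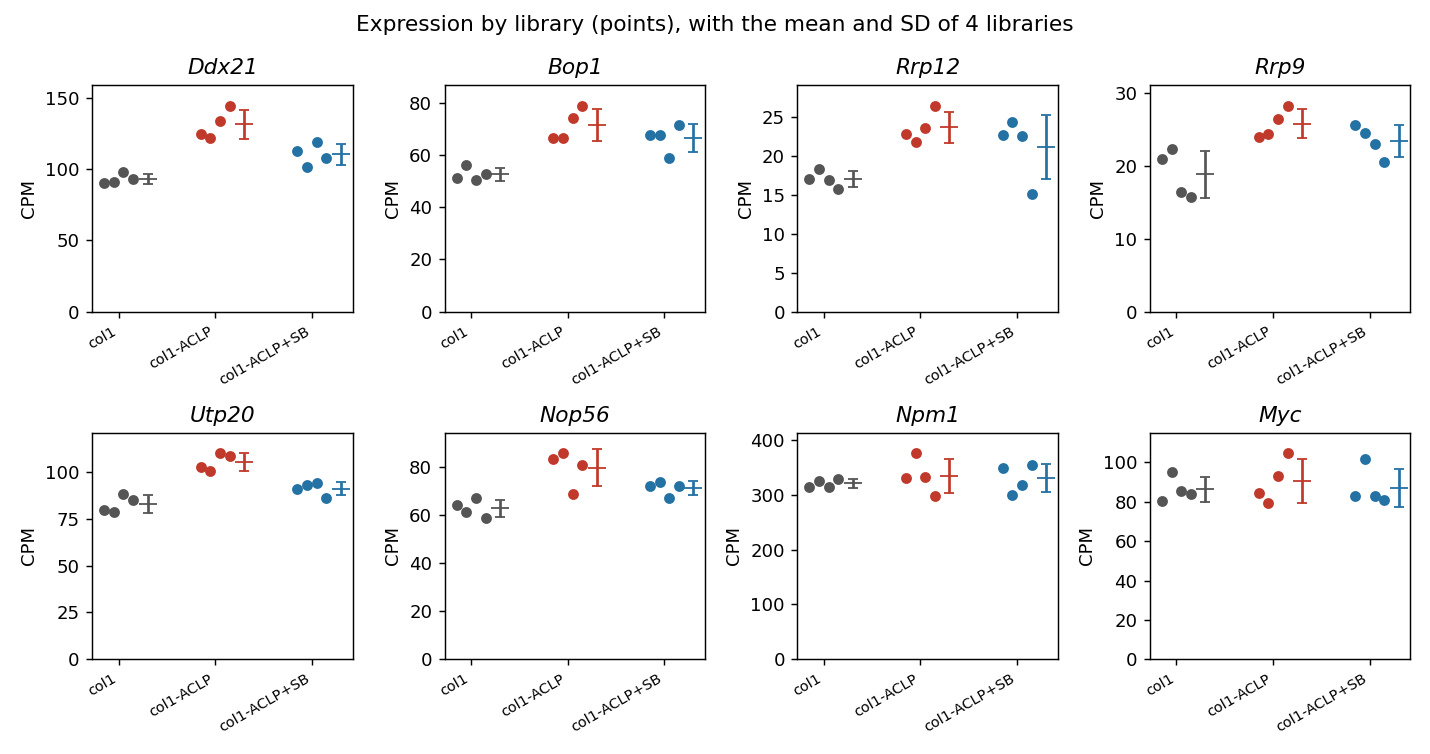
Expression of 8 genes in CPM (vertical axes start at 0), with 1 point per library and the mean ± SD of 4 libraries beside each group. Ddx21 is separate in all 3 groups, Bop1, Rrp12, Rrp9, Utp20 and Nop56 are above every col1 library in each col1-ACLP library, and Npm1 and Myc overlap in all groups.

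The group with SB431542 on ACLP was next compared with col1. There, 2 of the 34 genes were higher (5.88%, against 4.6% of all genes tested). None was lower by edgeR, DESeq2 or limma-voom or at an unadjusted p under 0.05 (4.54% of all genes at the adjusted p). No member passed the fold threshold, which 2.28% of all genes passed. In this fit, the share of members higher at the adjusted p was thus near that of all genes. At an unadjusted p under 0.05, 9 members were higher, for which the share of all genes is not given here. The estimate was higher in 27 of 34 members (50.9% of all genes), with a median log2 fold change of 0.075 against 0.0046 over all genes, and libraries were all higher in 6 members (17.6%, against 6.7% of all genes). Bop1 was higher by 26.1% (log2 fold change 0.33, SE 0.070, adjusted p = 0.00196), and Ddx21 by 18.8% (0.25, SE 0.061, adjusted p = 0.00743). The other 4 genes without overlap were Tcof1, Mybbp1a, Nop56 and Rrs1, at adjusted p from 0.101 to 0.515. Estimates above that of Ddx21 that did not pass were those of Rrp12 at 21.2 ± 4.11 CPM (log2 fold change 0.32, adjusted p = 0.0975) and Rrp9 at 23.4 ± 2.24 CPM (0.31, adjusted p = 0.08).

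Without col1 replicate 2, 3 members and 722 of 16915 genes were higher. Rrp9 was the member added (adjusted p = 0.0205), and the median over the members was 0.10. Without col1 replicate 4, Ebna1bp2 was added (adjusted p = 0.0237), and 660 of 16917 genes were higher. In col1-ACLP+SB replicate 4, Rrp12 was at 15.1 CPM against 22.6 to 24.3 CPM in the other 3. Without that library, 4 of the 34 members were higher, against 685 of 17030 genes. Rrp12 and Rrp9 were among the 4 (adjusted p = 0.00399 and 0.0489). Noc4l had the lowest estimate, at 16.5 ± 1.79 CPM against 18.6 ± 2.04 CPM on col1 (log2 fold change -0.17, 95% interval -0.39 to 0.044). Myc was at a log2 fold change of 0.014 (95% interval -0.15 to 0.18).

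The last comparison set col1-ACLP+SB beside col1-ACLP, the same substrate with and without the inhibitor. It shares the col1-ACLP libraries with the comparison of ACLP with collagen, so the direction of a gene in the 2 comparisons is linked and the values are given side by side only. Of the 34 members, 1 was lower by edgeR (2.94%, against 0.905% of all genes) and 4 by DESeq2, Ddx21, Utp20, Mybbp1a and Ncl, where DESeq2 called 328 of 11887 genes lower. None was higher by either tool, by limma-voom or at an unadjusted p under 0.05 (0.571% of all genes at the adjusted p). None passed the fold threshold (0.128% of all genes). The estimate was higher in 0 of 34 members (3 of 34 when scaled by library size alone) and in 51.2% of all genes, with a median of -0.11 over the members and 0.0049 over all genes. All col1-ACLP+SB libraries lay below all col1-ACLP libraries in 5 members, Ddx21, Utp20, Mybbp1a, Ncl and Dkc1 (14.7%, against 4.52% of all genes).

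Ddx21 was the member that passed in edgeR, at -0.25 on the log2 scale (SE 0.060, adjusted p = 0.0345). That call was lost when col1-ACLP replicate 3 or 4 or col1-ACLP+SB replicate 1, 2 or 4 was left out, with adjusted p from 0.0606 to 0.149, while the estimate stayed between -0.26 and -0.20 in those fits. It was also lost with library size alone (adjusted p = 0.0523) and with only the pair of groups fitted (adjusted p = 0.0572). Utp20 followed with -0.21 (SE 0.056, adjusted p = 0.0589), then Mybbp1a with -0.16 (SE 0.051, adjusted p = 0.138), Fbl with -0.21 (SE 0.074, adjusted p = 0.165) and Ncl with -0.12 (SE 0.042, adjusted p = 0.168). The 10 members of large subunit assembly had a median of -0.044 (-0.017 with library size alone), with Bop1 at -0.10 (95% interval -0.25 to 0.040). The 4 box H/ACA genes had a median of -0.16, with Dkc1 at -0.19 (95% interval -0.38 to -0.0086, adjusted p = 0.354). For Myc the estimate was -0.053 (95% interval -0.22 to 0.11). Intervals of the difference included 0 in 27 of the 34 members with bounds no lower than -0.44 and no higher than 0.20.

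**Figure D4:**
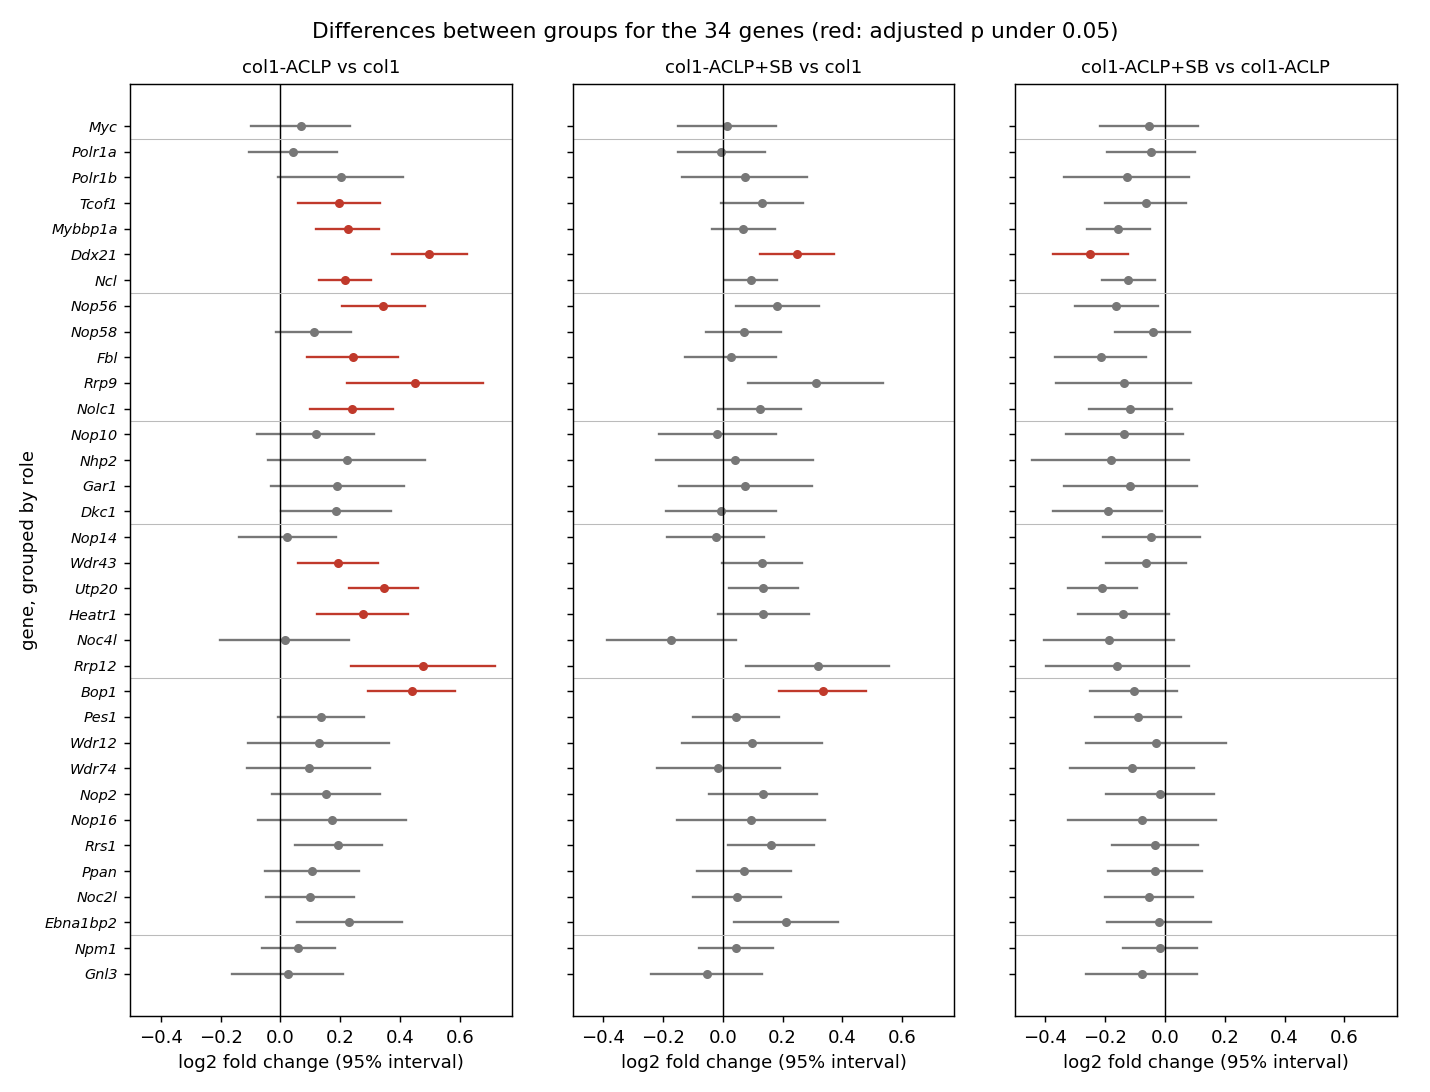
Log2 fold change of each gene (points) with its 95% interval (lines) in the 3 comparisons, with genes by role and those at an adjusted p under 0.05 in red. On col1-ACLP against col1, 13 genes are red and all 34 points lie right of 0 (30 of 34 with library size alone), and with SB431542 on ACLP, 2 are red against col1 and 1 against col1-ACLP.

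Groups of genes next to ribosome assembly were read in the same fits. Of 24 Myc targets outside the nucleolus, 14 rose and 1, Cdk4, a kinase of the cell cycle, fell on col1-ACLP (12 and 1 with library size alone). The median over the list was 0.26 on the log2 scale. Ldha, lactate dehydrogenase, rose from 289 ± 13.8 to 493 ± 25.9 CPM (adjusted p = 3.65e-12), Shmt2, the mitochondrial serine hydroxymethyltransferase, from 78.5 ± 5.92 to 146 ± 14.3 CPM (adjusted p = 4.99e-10), and Odc1, ornithine decarboxylase, from 70.4 ± 7.37 to 112 ± 5.27 CPM (adjusted p = 3.09e-08). Many of these genes are also targets of other factors. With SB431542 on ACLP, 6 of the 24 were higher and 0 lower than on col1 in edgeR (4.6% and 4.54% of all genes), with a median of 0.12. By DESeq2 and limma-voom 0 were lower, and at an unadjusted p under 0.05 1. Against col1-ACLP, 0 were higher by these tools or at an unadjusted p under 0.05 (0.571% of all genes in edgeR). In edgeR 1, Shmt2, was lower (log2 fold change -0.33, adjusted p = 0.0151), against 0.905% of all genes. In that comparison, 3 were lower by DESeq2 (328 of 11887 genes) and 1 by limma-voom (177 of 16465). At an unadjusted p under 0.05, 9 were lower, for which the share of all genes is not given here.

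Cell cycle genes were highest in the same group as the members. Of 30, 21 rose and 0 fell on col1-ACLP (19 and 0 with library size alone, and 0 lower by DESeq2, by limma-voom or at an unadjusted p under 0.05), with a median of 0.49, and the mean over the list was -0.37 to -0.18 in centred log2 CPM in the col1 libraries, 0.19 to 0.32 in those on col1-ACLP and 0.010 to 0.061 with the inhibitor. Mki67, a mark of cycling cells, rose from 32.4 ± 1.78 to 50.1 ± 3.34 CPM (adjusted p = 3.33e-07), and Top2a from 40.1 ± 4.12 to 65.9 ± 5.40 CPM (adjusted p = 6.86e-07). With SB431542 on ACLP, 10 of the 30 were higher than on col1 (4.6% of all genes tested), with a median of 0.30. Against col1-ACLP, 1 was lower (0.905% of all genes), Mcm4 (log2 fold change -0.32, adjusted p = 0.0253). In that comparison, 2 were lower by DESeq2 (328 of 11887 genes). At an unadjusted p under 0.05, 9 were lower, for which the share of all genes is not given here. The part of cycling cells in the differences of the ribosome factors was not tested.

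Cytosolic ribosomal proteins are the cargo of the assembly factors. Of 79, 0 were higher on col1-ACLP by edgeR, DESeq2 or limma-voom or at an unadjusted p under 0.05, and 1 was lower by edgeR, Rps28 (log2 fold change -0.29, adjusted p = 0.0139), and the median was -0.051. By DESeq2 2 were lower, by limma-voom 1 and at an unadjusted p under 0.05 5, and with library size alone 2 were lower, with a median of -0.099. Their list mean was spread within groups, from -0.24 to 0.082 in centred log2 CPM on col1-ACLP and from -0.15 to 0.17 on col1-ACLP+SB, with the lowest value in col1-ACLP replicate 4. Among 12 snoRNA host genes, 1 rose, Snhg5 (log2 fold change 0.29, adjusted p = 0.0432, a call lost with library size alone), and 1 fell, Snhg20 (-0.46, adjusted p = 0.0259). Of 15 targets of p53, a factor known to be stabilized when ribosome assembly is disturbed, 3 rose (Plk2, Phlda3 and Sesn2) and 5 fell (Sesn1, Trp53inp1, Eda2r, Btg2 and Cdkn1a) on col1-ACLP (2 and 6 with library size alone), with Sesn1 at -0.65 (adjusted p = 7.70e-08), Plk2 at 0.49 (adjusted p = 9.66e-07) and Trp53inp1 at -0.31 (adjusted p = 6.03e-05).

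**Figure D5:**
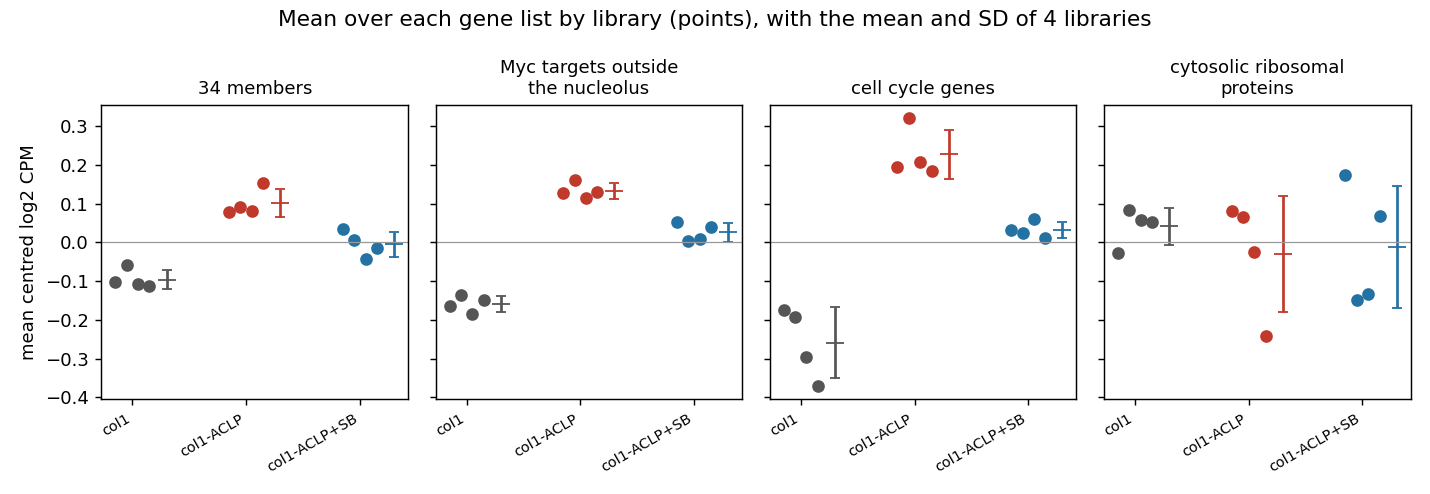
Mean centred log2 CPM over each of 4 gene lists (vertical axis), with 1 point per library and the mean ± SD of 4 libraries beside each group. The 34 members, Myc targets outside the nucleolus and cell cycle genes are lowest on col1 and highest on col1-ACLP without overlap, and cytosolic ribosomal proteins overlap in all groups, from -0.24 to 0.17.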

How the data were processed

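RNA-seq libraries of poly(A) RNA from 12 cultures of 10T1/2 cells were sequenced as paired-end reads, and the paper's methods give mapping by HISAT2 to GRCm39. Per the labels, HISAT2 and mm10 were used. The table's coordinates were set beside GENCODE M39 on GRCm39: of 56017 genes shared by identifier, 76.8% had the same start or end, so GRCm39 was taken as the build. The deposited values are raw read counts for each gene, not normalized by the authors, beside gene lengths in bases. The counting tool, its strand setting and its treatment of multiply mapped reads are not given in the sources used here.

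Tests used edgeR 4.0.16 (R 4.3.3) on these counts: filterByExpr, TMM factors, glmQLFit and glmQLFTest with 1 mean per group over all 12 libraries, and Benjamini-Hochberg adjustment over 16465 genes. A threshold of 0.05 was set on the adjusted p, and 0.58 on the log2 fold change follows the study's methods, which used DESeq2. SEs and 95% intervals came from the same fits. Log2 CPM used a prior count of 2. Replicates are labelled separate libraries, and pairs differed by more than sampling noise. All members are named with values; from each further list, counts and at most the 3 genes with the smallest adjusted p. Cdk4 and the p53 targets outside those 3 were named after their values were seen, because few genes passed in that direction. The members and lists were chosen with earlier results of these data known. Alternatives were RLE factors, library size alone, no filter, a mean of 10 counts, pairs of groups, DESeq2 1.42.0, limma-voom (limma 3.58.1), a replicate block and each library left out. Library totals were 29246154 to 52201922 counts, and the square root of the common dispersion over all genes tested was 0.153. The members varied less than that between replicates. For members with low counts, such as Gar1 with 379 in 1 library, counting error can be a large part of their spread. Reads carry no molecular identifiers, so counts give counting error only. In simulated counts with 200 changed genes (16014 tested), log2 changes of 0.5, 0.3 and 0.2 between col1-ACLP and col1 were called in 44, 30 and 11 of 50 genes each, with 12 calls among 15814 unchanged genes.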

Additional observations from a re-analysis of the deposited data

Results flagged for a closer look

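Each member was screened in each group of 4 libraries for a value far from the other 3, 102 groups in all, and 6 were found. Chance alone marks about 1 in 20 groups, so 6 of 102 is near what chance gives. Myc was at 102 CPM in col1-ACLP+SB replicate 2, against 81.1 to 83.1 CPM in the other 3. Polr1b was at 22.0 CPM in col1-ACLP+SB replicate 1, against 17.3 to 17.7 CPM. Nop58 was at 61.1 CPM in col1 replicate 3, against 56.9 to 57.2 CPM. Nolc1 was at 51.3 CPM in col1-ACLP+SB replicate 4, against 57.7 to 58.0 CPM. Gar1 was at 11.5 CPM in col1 replicate 2, against 13.5 to 13.8 CPM, and at 13.5 CPM in col1-ACLP replicate 2, against 15.3 to 15.7 CPM.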

How the results depend on the processing

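On col1-ACLP against col1, between 9 and 14 members were higher and 0 lower in all 16 alternatives, where 1159 to 1690 of all genes were higher. Of the 13 called, 9 were called in every alternative, and Nolc1 in 15, Fbl in 11, Wdr43 in 8 and Tcof1 in 7 of them. With library size alone, the members' median was 0.14 in place of 0.19, 30 of 34 estimates were above 0, and all genes split into 1159 higher and 1865 lower in place of 1568 and 1385. In col1-ACLP+SB against col1-ACLP, that scaling gave 157 higher and 109 lower genes in place of 94 and 149, and 3 of 34 member estimates above 0. The number of members lower there was 1, and it was 0 with library size alone, 2 without a filter, 0 with only the pair of groups fitted, 4 with DESeq2 and 0 to 1 with 1 library left out. Against col1, col1-ACLP+SB had 2 members higher, and 2 to 4 with 1 library left out, where 627 to 722 of all genes were higher. The causes were not tested. Without a call, an estimate changed sign in some alternative in 6, 12 and 10 members in the 3 comparisons, in the order of the report. Replicate numbers did not pair the libraries: deviations of libraries with the same number correlated from -0.037 to 0.036, and of others from -0.036 to 0.041. With a replicate block, 12 members and 1483 of 16465 genes were higher on col1-ACLP, with a median of 0.19 over the members. In the simulated counts, log2 changes of 0.3 and 0.2 between col1-ACLP and col1 were called in 30 and 11 of 50 genes each. Far fewer genes were changed there than passed in the real comparison, which makes the adjusted p threshold stricter. Those shares are therefore not a measure of how often such changes are missed here. A member that did not pass is still not shown to be unchanged.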

Other observations

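Within each group of 4 libraries, the library that held the highest or lowest value was counted over the 34 members. In col1-ACLP replicate 4, 21 members were highest and 5 lowest, against 27.5% and 28.7% of all genes. In col1-ACLP+SB replicate 2, 14 members were highest and 12 lowest, against 30.4% and 30% of all genes.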
